A study of Mus musculus with 6 samples.

Results

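Carbonic anhydrases and a bicarbonate transporter of acid extrusion were followed in N1E115 cells, a mouse neuroblastoma line that the labels describe as NOS1+, meaning positive for the neuronal nitric oxide synthase. The 9 genes were chosen by name: Car2, Car4, Car5b, Car8, Car9, Car11, Car12 and Car13, which are 8 carbonic anhydrase genes, and Slc4a7. All 9 had a row among the 23358 gene rows of the deposited count table. The cells were cultured for 3 days in 20% oxygen (normoxia in the labels) or 4% oxygen (hypoxia), with no other treatment named and with 3 libraries per oxygen level, numbered 1 to 3 in both. All libraries come from 1 cell line, and whether those of 1 oxygen level were grown as independent cultures is not stated, so every p-value here covers library-to-library spread that could be technical.

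Carbonic anhydrases are zinc enzymes that interconvert carbon dioxide and water with bicarbonate and a proton. Cells that rely on glycolysis export acid, and the membrane enzymes Car9 and Car12, whose catalytic domains face outward, convert carbon dioxide at the cell surface while bicarbonate transporters such as the product of Slc4a7 (NBCn1, a sodium-bicarbonate cotransporter) bring base into the cell. Car2 and Car13 are cytosolic, Car4 is anchored to the outer membrane face, and Car5b works in mitochondria. Car8 and Car11 encode carbonic anhydrase-related proteins that lack the enzyme activity. In human cells the gene of carbonic anhydrase IX is a well-known target of the hypoxia-inducible factors, transcription factors that bind the hypoxia response element.

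The 300 bases around 4 of the transcript starts are shown because hypoxia-inducible factors act through such elements, which differ in number between these genes. They run from 250 bases before to 50 bases from the start, in RefSeq's GRCm38.p6 (the mm10 assembly), 5′ to 3′ on the gene's strand. Capitals mark the core of the hypoxia response element, searched as ACGTG and as GCGTG on both strands, with no overlapping matches here, so that a core on the opposite strand reads CACGT or CACGC as printed. The Car12 window is chr9:66713436-66713735, the Car9 window chr4:43506776-43507075, the Car11 window chr7:45699717-45700016 and the Car5b window chrX:164027961-164028260, the last on the minus strand and the others on the plus strand.
Car12: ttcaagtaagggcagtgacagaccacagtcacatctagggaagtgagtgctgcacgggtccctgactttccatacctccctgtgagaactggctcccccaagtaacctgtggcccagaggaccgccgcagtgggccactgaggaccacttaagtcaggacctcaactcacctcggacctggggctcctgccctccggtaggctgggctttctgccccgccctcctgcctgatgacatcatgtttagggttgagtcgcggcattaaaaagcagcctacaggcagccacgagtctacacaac
Car9: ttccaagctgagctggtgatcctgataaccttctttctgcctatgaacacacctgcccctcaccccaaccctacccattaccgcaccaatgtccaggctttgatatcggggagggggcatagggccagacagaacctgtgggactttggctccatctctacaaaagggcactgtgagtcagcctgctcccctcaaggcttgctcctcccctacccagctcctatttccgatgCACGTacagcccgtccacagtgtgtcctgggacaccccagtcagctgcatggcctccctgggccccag
Car11: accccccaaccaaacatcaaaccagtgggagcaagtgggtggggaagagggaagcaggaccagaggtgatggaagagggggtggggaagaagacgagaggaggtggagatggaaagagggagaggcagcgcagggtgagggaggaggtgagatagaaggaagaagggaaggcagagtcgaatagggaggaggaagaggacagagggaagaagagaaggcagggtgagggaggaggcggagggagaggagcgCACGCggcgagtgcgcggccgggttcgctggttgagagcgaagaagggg
Car5b: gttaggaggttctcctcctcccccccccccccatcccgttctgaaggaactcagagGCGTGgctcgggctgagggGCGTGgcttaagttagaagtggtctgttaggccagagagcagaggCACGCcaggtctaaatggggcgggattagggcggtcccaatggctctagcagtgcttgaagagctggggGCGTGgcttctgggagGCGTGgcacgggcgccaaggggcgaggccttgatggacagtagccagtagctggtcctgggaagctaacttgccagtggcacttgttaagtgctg

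The Car9 window held 1 core, ACGTG on the opposite strand at bases -18 to -14 from the start. The Car12 window held 0, and the Car5b window held 5, all GCGTG, between bases -194 and -41. At the Car11 start that matches the deposited gene row, 1 GCGTG core lay just past the start, at bases 2 to 6 on the opposite strand. A second RefSeq start of Car11, 163 bases upstream, had 1 such core at bases -218 to -214. Car4 had 1 ACGTG core at bases 3 to 7, and the Slc4a7 window, whose RefSeq start lies 15759 bases inside the deposited gene, had 0. Promoters were matched by symbol for 6 of the 9 genes. Among 32851 RefSeq windows of the same length, 43.8% held at least 1 core of either kind, 19.6% held ACGTG and 32.4% held GCGTG, so a single core is common. For larger numbers, as in the Car5b window, 8.93% held 3 or more cores and 3.86% held 4 or more. A match is a description of these letters, and their absence from the Car12 window says nothing of sites farther away.

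**Figure D1:**
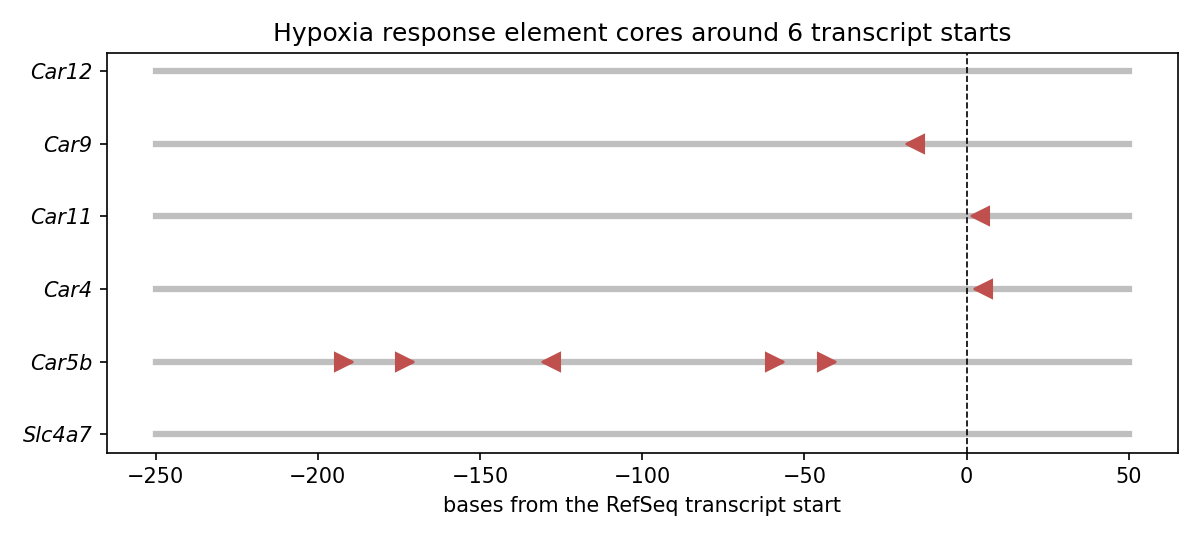
Position of hypoxia response element cores (red triangles, pointing right on the gene's strand and left on the opposite strand) from 250 bases before to 50 bases from the transcript start (dashed line) of 6 genes, in bases. Car9 has 1 core at bases -18 to -14, Car5b has 5, and Car12 and Slc4a7 have 0.

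Libraries held 124259152 to 163695286 counts over genes, and every gene count was even, which is what counting both mates of a read pair gives, so 1 read pair is taken as 2 counts. CPM values are counts scaled to the library size after TMM. RPKM values, the authors' own, are scaled to another library total and divided by gene length, so that only they allow levels of different genes to be compared. The 20% oxygen replicate 1 lay farthest from the rest on the first principal component (-52.4, against -21.6 to 36.1 for the other libraries). The sympathoadrenal neuroblast markers of the labelled cell type were present, with all 10 tested, and none was at 0. Their summed level was 3571 to 3864 CPM in the 20% oxygen libraries and 5189 to 6577 CPM at 4% oxygen, with 6 of 10 at an unadjusted edgeR p under 0.05. Summed levels of 4 Schwann, 4 fibroblast, 4 macrophage and 4 endothelial markers lay between 0.555 and 15.7 CPM in every library, and Lum, a fibroblast marker, was at 0 in all. The neuroblast markers moved in the same direction as Car12, and their part in its result was not tested. In bulk RNA, fewer cells of a type and less RNA per cell cannot be told apart.

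Per length, the carbonic anhydrase RNA of these cells was mostly Car12. Of the summed RPKM of all 16 mouse carbonic anhydrase genes in the table, Car12 held 67.2%, 79.6% and 72.8% in 20% oxygen replicates 1, 2 and 3, and 80.4%, 83.7% and 83.1% at 4% oxygen. Every 4% oxygen library lay above every 20% oxygen library in this share. Among the 8 carbonic anhydrases chosen by name alone the groups overlapped, since Car12 then held 89.2%, 94.6% and 86.7% of the sum at 20% oxygen and 89.2%, 95.6% and 90.2% at 4% oxygen. The summed RPKM itself was 15.1, 13.001 and 11.1 at 20% oxygen, and 25.5, 29.8 and 26.7 at 4% oxygen. These sums are on the authors' scale and were not tested between oxygen levels. Car1, Car2, Car3 and Car10 were at 0 in all 6 libraries.

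**Figure D2:**
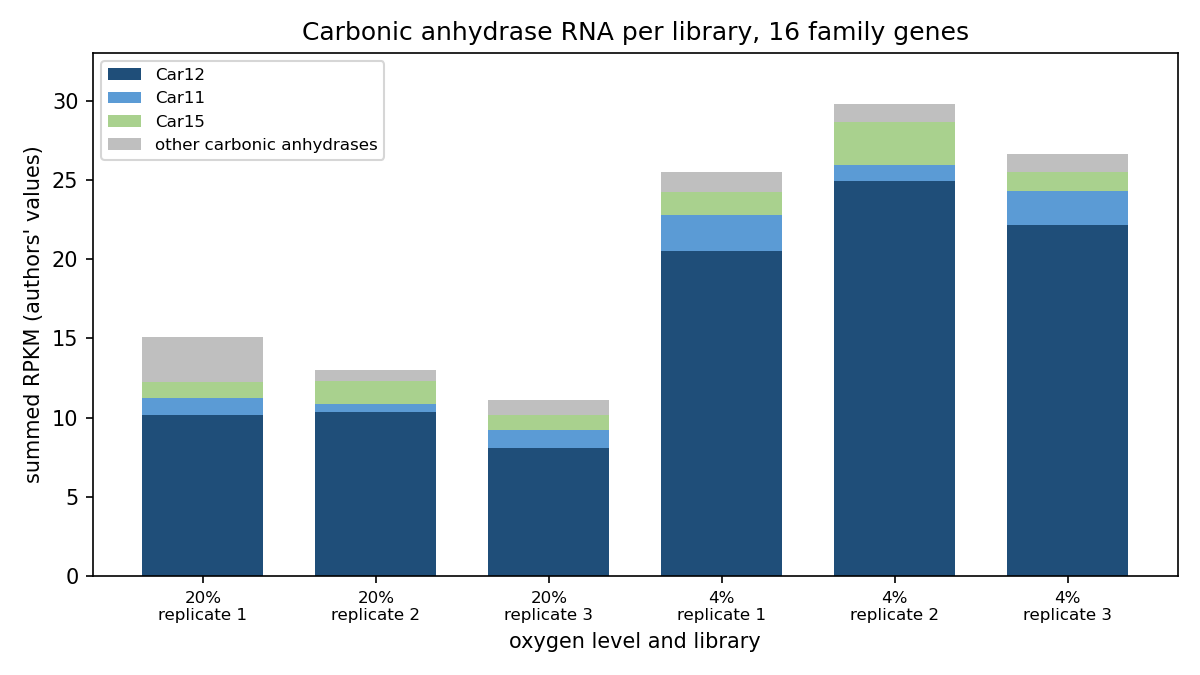
Summed RPKM (the authors' values, linear axis from 0) of 16 carbonic anhydrase genes in each of the 6 libraries, stacked by gene. The sums run from 11.1 to 15.1 at 20% oxygen and from 25.5 to 29.8 at 4% oxygen, and Car12 makes up most of each bar.

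In RPKM the order of the 9 genes at both oxygen levels began with Car12, Slc4a7, Car11, Car5b and Car9. Group means at 20% oxygen were 9.53 ± 1.25 for Car12, 3.73 ± 1.33 for Slc4a7, 0.901 ± 0.355 for Car11, 0.0815 ± 0.0455 for Car5b and 0.0286 ± 0.0227 for Car9 (SD, n = 3). At 4% oxygen they were 22.5 ± 2.23, 4.09 ± 0.313, 1.82 ± 0.685, 0.0933 ± 0.0287 and 0.0791 ± 0.0249 RPKM in the same order. From Car12 down to Car5b, the ranges of neighbours in this order did not overlap at either oxygen level. Car5b and Car9 overlapped at both, so their order is not set by these data. Car8, Car4, Car13 and Car2 followed, at means of 0.0138 RPKM or less.

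**Figure D3:**
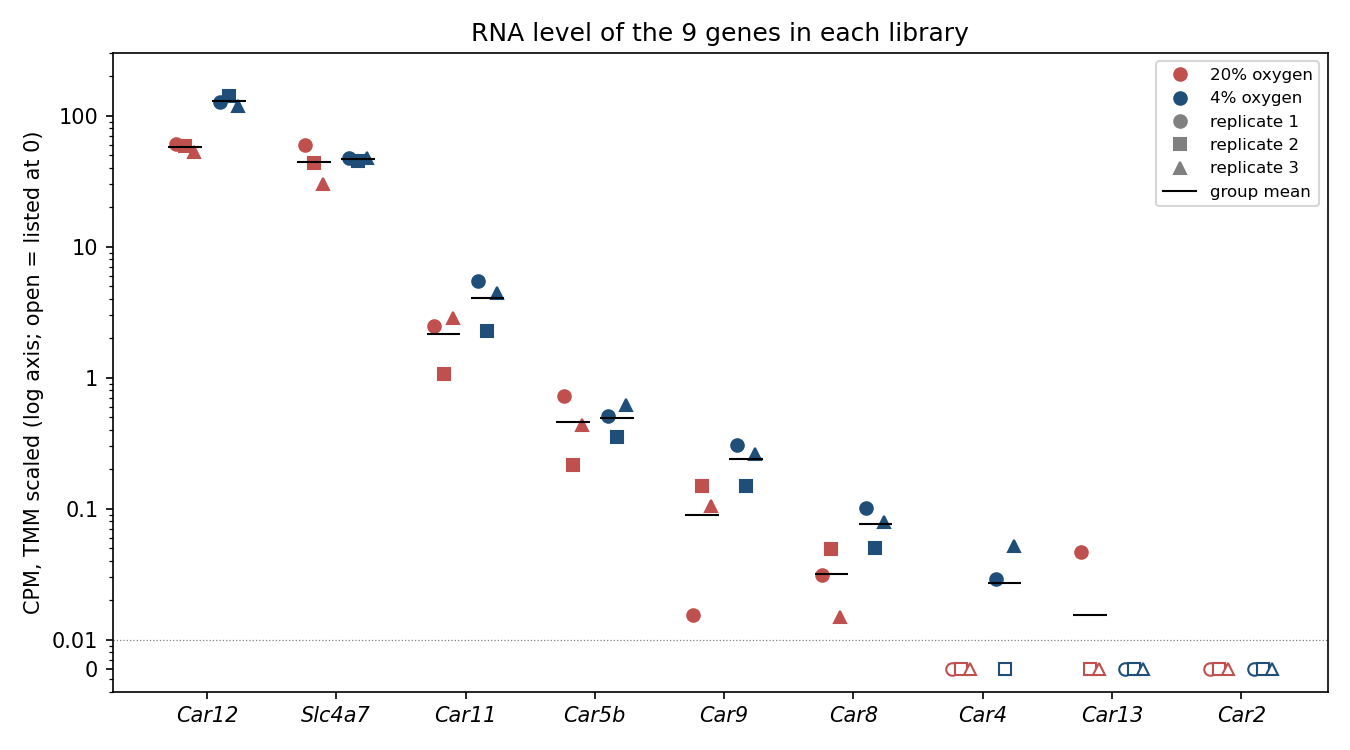
CPM (TMM scaled, log axis, with values of 0 drawn as open symbols on the line marked 0) of the 9 genes in the 3 libraries of each oxygen level, with group means as black lines. Car12 runs from 52.4 to 60.9 CPM at 20% oxygen and from 119 to 141 CPM at 4% oxygen, while Slc4a7 overlaps between the groups and Car2 is at 0 in all libraries.

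Car12 (chromosome 9, 66713686 to 66766845), the abundant outward-facing enzyme, stood at 60.9, 58.1 and 52.4 CPM in replicates 1, 2 and 3 of 20% oxygen, while the corresponding 4% oxygen libraries had 126, 141 and 119 CPM. Each 4% oxygen library was above each 20% oxygen library, as for 6.33% of all tested genes, with a gap wider than the spread within either group. The means were 57.1 ± 4.36 and 128 ± 11.2 CPM (SD, n = 3), a 2.25-fold difference. The log2 fold change was 1.17 (SE 0.23; 95% interval 0.67 to 1.66), with an unadjusted edgeR quasi-likelihood p of 0.000279 and a Benjamini-Hochberg adjusted p of 0.299 over the 14979 genes tested. By that adjusted p Car12 was not called, and nor was any other gene, since edgeR called 0% of genes in either direction; 451 (3.01%) were higher and 213 (1.42%) lower at an unadjusted p under 0.05. DESeq2, which called 55 genes higher and 8 lower, gave Car12 an adjusted p of 0.00528, the lowest of its 14 alternatives, which reached 0.99999.

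The same-numbered libraries deviate together, so each number was also read as a pair. The log2 ratio of 4% to 20% oxygen CPM for Car12 was 1.05, 1.27 and 1.18 in pairs 1, 2 and 3, a narrow range. With the replicate number as a block, edgeR gave Car12 an adjusted p of 0.0746 and called 11 genes higher and 0 lower. Its log2 fold change stayed between 1.10 and 1.22 whichever library was left out, with unadjusted p-values from 0.000291 to 0.00193. By unadjusted p, Car12 was number 14 of the 14979 genes, and by size of its fold change number 253 among the higher estimates.

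Car9 (chromosome 4, 43507026 to 43513725), the related outward-facing enzyme, was rare in these cells. It had 1, 9 and 7 read pairs in 20% oxygen replicates 1, 2 and 3, and 21, 12 and 20 read pairs at 4% oxygen. In CPM these were 0.0155, 0.149 and 0.105, against 0.305, 0.150 and 0.262. The groups did not overlap, but 20% oxygen replicate 2 and 4% oxygen replicate 2 lay almost level. The log2 fold change of 1.40 (SE 0.85; 95% interval -0.45 to 3.26) did not pass (edgeR unadjusted p = 0.124, adjusted p = 0.996).

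The Car9 estimate leaned on 20% oxygen replicate 1, with its 1 read pair. Without that library the log2 fold change was 0.91, and without both libraries numbered 1 it was 0.68. The pair log2 ratios were 4.30, 0.01 and 1.32, against the narrow range of Car12. Car9 had at least 10 counts, the filter's minimum, in 2 libraries at 20% oxygen and 3 at 4% oxygen. The filter scales that minimum to library size. When counts were halved to read pairs, Car9 no longer entered the test. Its 12 read pairs in 4% oxygen replicate 2, the largest library, were then below the scaled minimum. Exons of the antisense gene Gm12454 cover 9.29% of the Car9 exon bases in GENCODE M21, and the strand setting of the counting is not given in the sources used here, so reads of the antisense gene may be among these few.

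Car11 (chromosome 7, 45699967 to 45704661), which encodes a related protein without enzyme activity found mainly in brain, came next after Car12 among the 8 carbonic anhydrases in RPKM. Replicates 1, 2 and 3 had 2.50, 1.07 and 2.85 CPM at 20% oxygen, against 5.43, 2.26 and 4.45 CPM under 4% oxygen. The groups overlapped, because 4% oxygen replicate 2 lay below 20% oxygen replicates 1 and 3. Within each number the 4% oxygen library was the higher one, with log2 ratios of 1.12, 1.08 and 0.64. The log2 fold change was 0.92 (SE 0.47; 95% interval -0.11 to 1.94; edgeR unadjusted p = 0.0742, adjusted p = 0.996). With the replicate block the unadjusted edgeR p was 0.00807 and the adjusted p 0.372, the lowest of its 14 alternatives (highest 0.99999). That puts 2 of the 5 tested genes under an unadjusted 0.05 in place of 1. How many of all genes the block puts there was not counted.

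Slc4a7 (chromosome 14, 14703025 to 14799943), the sodium-bicarbonate cotransporter, was at 59.4, 43.3 and 30.04 CPM in replicates 1, 2 and 3 of 20% oxygen, against 47.03, 44.6 and 47.4 CPM in those of 4% oxygen. The 20% oxygen libraries lay on both sides of the 4% oxygen libraries. The means were 44.2 ± 14.7 and 46.3 ± 1.52 CPM (SD, n = 3), and the log2 fold change was 0.07 (SE 0.28; 95% interval -0.54 to 0.67; edgeR adjusted p = 0.996). The pair log2 ratios were -0.34, 0.04 and 0.66. The direction depended on the library left out, at 0.34 when 20% oxygen replicate 1 was omitted but -0.15 when replicate 3 of that group was.

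The RPKM ratio of Car12 to Slc4a7, taken within each library, was 2.04, 2.67 and 3.47 at 20% oxygen and 5.32, 6.27 and 4.98 at 4% oxygen. All 3 ratios at 4% oxygen were above all 3 at 20% oxygen, with means of 5.52 ± 0.671 and 2.73 ± 0.715 (SD, n = 3). The exact two-sided permutation p was 0.1, the smallest that 3 libraries against 3 can give.

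Car5b (chromosome X, 163976822 to 164028010), the mitochondrial enzyme whose promoter window held 5 cores, had 0.729, 0.215 and 0.435 CPM at 20% oxygen and 0.508, 0.350 and 0.615 CPM at 4% oxygen. The groups overlapped throughout. Its log2 fold change of 0.09 had a 95% interval from -1.25 to 1.44 (edgeR adjusted p = 0.996), and it turned to -0.24 without 20% oxygen replicate 2 and to -0.10 without 4% oxygen replicate 3.

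**Figure D4:**
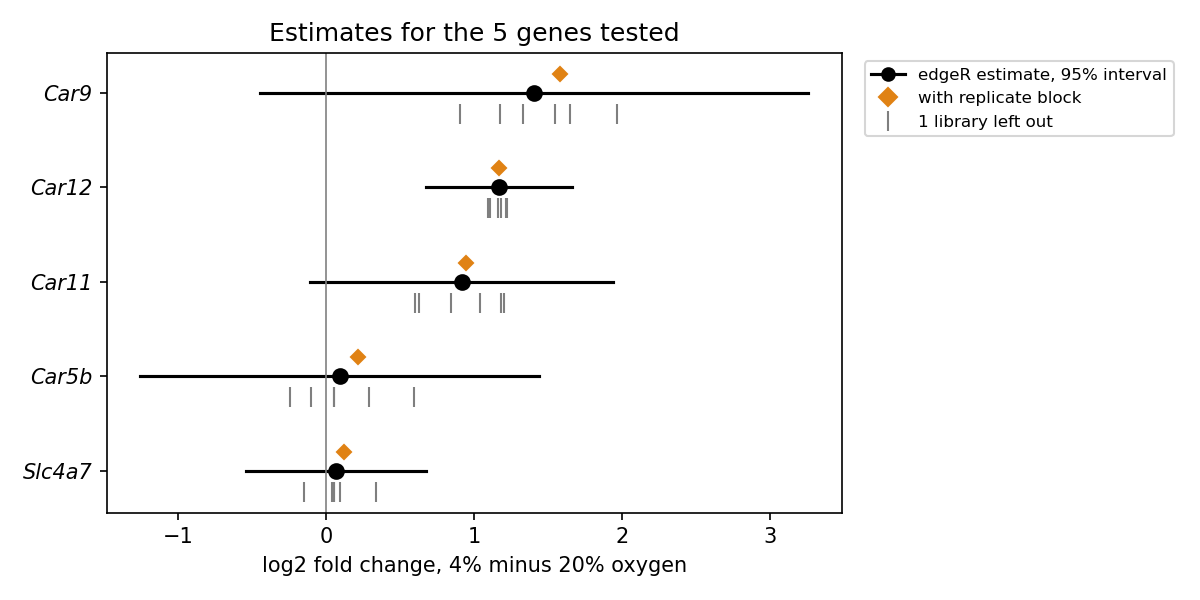
Log2 fold change of 4% against 20% oxygen for the 5 genes tested, with 95% intervals from edgeR (black), the estimate with the replicate block (orange diamonds) and the 6 estimates that leave out 1 library each (grey ticks). The interval of Car12 runs from 0.67 to 1.66, and the intervals of the other 4 genes include 0.

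Car2, Car4, Car8 and Car13 were too low for the test. Car2 (chromosome 3, 14886426 to 14900770), the fast cytosolic enzyme, was not detected, with 0 counts in all 6 libraries; a limit of 3 read pairs allows up to 0.0375 to 0.0496 CPM per library, for counting error only. Car13 (chromosome 3, 14641727 to 14663002), another cytosolic enzyme, had 3 read pairs in 20% oxygen replicate 1 and 0 elsewhere. Car4 (chromosome 11, 84957754 to 84966054), the membrane-anchored enzyme, had 2, 0 and 4 read pairs in the 4% oxygen libraries and 0 at 20% oxygen. Its counts are at or near the limit, and no fold is given.

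Car8 (chromosome 4, 8141493 to 8239041), an inactive relative that binds the inositol trisphosphate receptor, was seen in all 6 libraries at 2, 3 and 1 read pairs at 20% oxygen and 7, 4 and 6 at 4% oxygen. The read pairs did not overlap between groups, and in CPM the gap between the closest libraries was from 0.0496 to 0.04999. Summed over libraries, Car8 had 6 read pairs at 20% oxygen and 17 at 4% oxygen. Scaled to the summed library sizes after TMM, the ratio of 4% to 20% oxygen was 2.41, with a 95% exact counting interval from 0.906 to 7.46. That interval includes 1, and it holds counting error only. Spread between libraries is not in it, so it is too narrow for a comparison of oxygen levels.

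Among the 5 genes tested, 1 was higher at 4% oxygen at an unadjusted p under 0.05, where 3.01% of all tested genes were, and 0 were lower, where 1.42% were. The groups did not overlap in the higher direction for 2 of the 5, Car12 and Car9, against 6.33% of all tested genes, and in the lower direction for 0, against 3.72%. Estimates were above 0 for all 5, against 47.3% of tested genes, though those of Car5b and Slc4a7 turned when some single libraries were left out. Their median log2 fold change was 0.92, and that of all tested genes was -0.03. Car9 met the filter in 2 libraries at 20% oxygen and 3 at 4% oxygen, so its 20% oxygen libraries alone would not have sufficed. Its entry thus depended on the group where it is high, and the values for overlap, direction and median include it. Leaving Car9 aside, Car12 was the only tested gene of the 9 without overlap. These counts are a description of the 5 genes and not of all 9.

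For Car12, the tested genes of at least 5 CPM with the most similar pattern over the 6 libraries were Cd276 and Nanos1. Each had a Pearson r of 0.990, taken on the log2 of CPM plus 0.5. Cd276, which encodes an immune checkpoint surface protein, had 19.7, 17.9 and 16.7 CPM at 20% oxygen and 26.3, 27.6 and 25.6 CPM at 4% oxygen. For Car9 the most similar were Rnasek, Atp2b3 and Il17rc (each r = 0.982), of which Atp2b3, a plasma membrane calcium pump, had 9.93, 15.8 and 13.2 CPM against 29.02, 16.5 and 20.99 CPM. Rnasek varied little, from 32.8 to 36.95 CPM. Car9 and Car12 themselves correlated at 0.691 over the same 6 libraries. All Car9 values, 0.0155 to 0.305 CPM, lay below the added 0.5, so the correlations of Car9 depend on it. These genes were picked as the highest of many correlations over 6 points, which share the oxygen contrast.

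Of the other genes of acid-base handling, 81 in 8 lists were looked up and 62 entered the test. At an unadjusted edgeR p under 0.05, 1 was higher, against 3.01% of all tested genes, and 0 were lower, against 1.42%, with a median log2 fold change of -0.04. The count of higher genes was 3 with the replicate block and 4 without 20% oxygen replicate 1, where the median was 0.13. The share of all tested genes under that threshold was not counted in either fit. The 1 gene was Slc16a3, the lactate and proton exporter, at 470, 469 and 686 CPM at 20% oxygen and 1330, 1721 and 1488 CPM at 4% oxygen. Its log2 fold change was 1.48 (SE 0.24; unadjusted p = 5.98e-05; edgeR adjusted p = 0.112). Of the 5 tested genes of proton-coupled monocarboxylate transport, Bsg, the chaperone subunit that brings these transporters to the membrane, followed with a log2 fold change of 0.69 (SE 0.37; edgeR unadjusted p = 0.0870) and overlapping groups. It had 1869 CPM in 20% oxygen replicate 1, against 630 and 754 CPM in the other libraries of that group and 1455 to 2141 CPM at 4% oxygen. Leaving out 20% oxygen replicate 1 gave 1.34 (SE 0.25; edgeR unadjusted p = 0.000203, adjusted p = 0.0962), and the replicate block 0.85 (SE 0.26; unadjusted p = 0.00782, adjusted p = 0.366).

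Of the remaining 8 carbonic anhydrases, 5 entered the test and 0 passed at an unadjusted p under 0.05 in either direction, with a median log2 fold change of -0.39. Car15, a membrane-anchored enzyme, had 1.88, 2.51 and 1.76 CPM at 20% oxygen and 2.61, 4.51 and 1.95 CPM at 4% oxygen. Car6, a secreted enzyme, had 2.45 CPM in 20% oxygen replicate 1 and 0.105 to 0.837 CPM in the other 5 libraries. Without 20% oxygen replicate 1 the median of the 5 genes was 0.50, and the log2 fold change of Car6 went from -1.02 to 0.63.

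The 7 tested relatives of Slc4a7 in the SLC4 bicarbonate transporter family had a median log2 fold change of 0.12, and 0 passed in either direction. Slc4a8, a sodium-driven chloride-bicarbonate exchanger of neurons, had a mean of 65.9 ± 14.9 CPM in 20% and of 86.1 ± 8.996 CPM in 4% oxygen (SD, n = 3), with overlapping groups; its unadjusted edgeR p was 0.149, and 0.0297 without 20% oxygen replicate 1. Slc4a3, an anion exchanger, averaged 21.6 ± 9.02 and 30.4 ± 7.52 CPM. Among 8 tested sodium-proton exchangers the median was 0.01 and 0 passed. Slc9a5 had 32.1, 15.3 and 19.7 CPM at 20% oxygen and 39.8, 23.5 and 30.96 CPM at 4% oxygen, higher within each number but overlapping between groups; its unadjusted edgeR p was 0.157, 0.0353 with the replicate block and 0.0134 without 20% oxygen replicate 1. Slc9a3, an epithelial exchanger, had 1.01 CPM in 20% oxygen replicate 1 and 0.0600 to 0.247 CPM elsewhere, and its log2 fold change turned from -1.33 to 1.23 without that library.

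**Figure D5:**
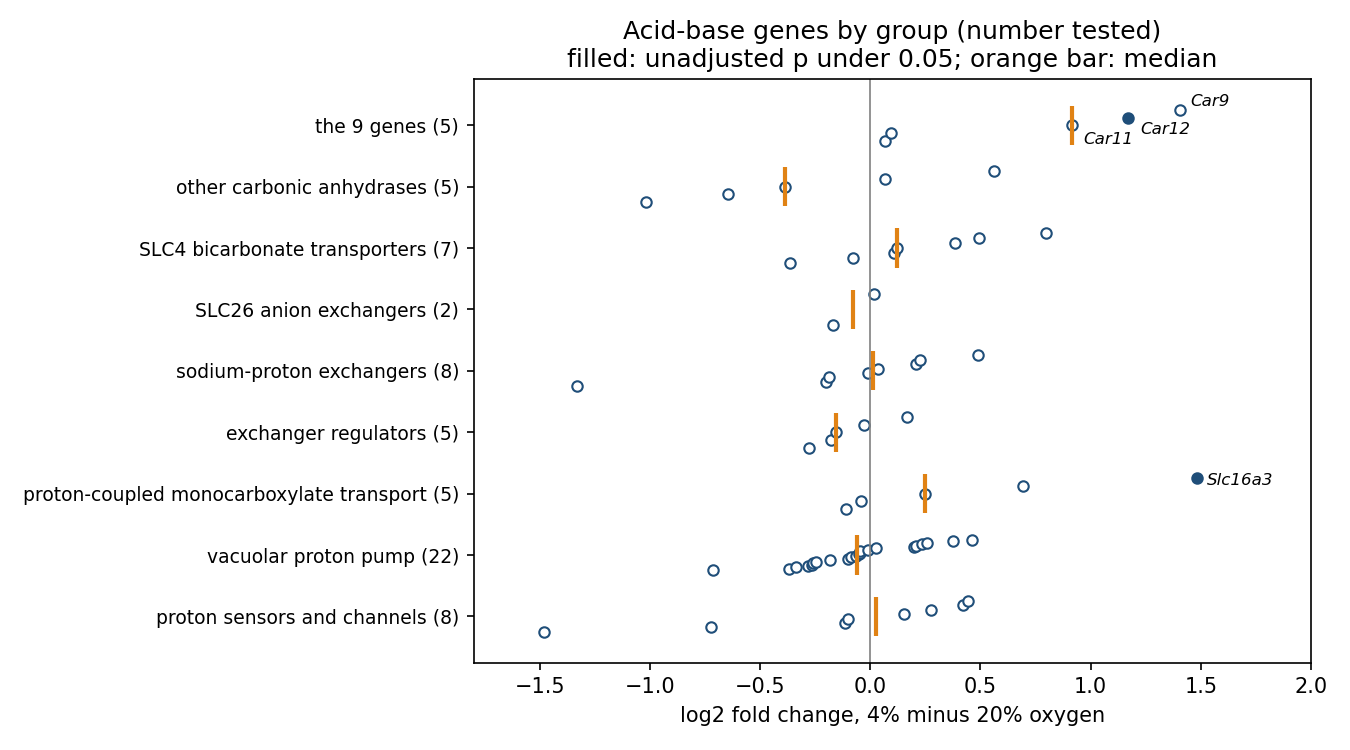
Log2 fold change of 4% against 20% oxygen for each tested acid-base gene (circles; filled where the unadjusted edgeR p is under 0.05) by gene list, with the number tested in brackets and the list median as an orange bar. Only Car12 and Slc16a3 are filled, at 1.17 and 1.48.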

How the data were processed

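RNA was measured in 6 libraries, 3 per oxygen level. Per the file headers, the deposited table holds raw gene counts and the authors' RPKM values with mm10 coordinates; counts divided by RPKM and length gave 1 constant total per library. TopHat2 2.0.6, Bowtie, HTSeq and mm10 appear in the submitters' processing notes without roles; strand use is not given in the sources used here. Both a stranded total RNA kit and an mRNA kit are named in the labels. Rows without a gene name made up 0% of the table.

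Counts as deposited were tested in R 4.3.3 with edgeR 4.0.16 (filterByExpr defaults with a minimum count of 10, TMM, quasi-likelihood F test, two-sided, no covariate), with Benjamini-Hochberg adjustment over all 14979 genes and a threshold of 0.05. Each standard error was derived from the fold change and its F statistic. The common biological coefficient of variation was 0.359, so replicate spread limits precision except for genes with few read pairs. RPKM was used for levels between genes, for the carbonic anhydrase sums and shares of each library, and for 1 ratio, and only that ratio was tested. Its scale is a library total of which genes made up 57.6% to 67.8%, and not the TMM scale of the tests. The test was checked on simulated data.

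The labels' replicate numbers were read as pairs because deviations from the group means correlated at 0.317, 0.604 and 0.212 for numbers 1, 2 and 3. Replicates within a group were not copies of each other (chi-square per degree of freedom of 241 or more). Alternatives were RLE scaling, other filters, DESeq2 1.42.0, limma-voom (limma 3.58.1), the block, halved counts and leaving out libraries; leaving out both libraries numbered 1 was added after the data were seen. Named genes were the 9, the 2 smallest p of each list, and the 3 most similar to Car9 and Car12; 2 genes that this rule takes are not reported here. Of the 81 list genes, 8 matched by a RefSeq synonym. The genes and lists were chosen with earlier results of these data known. Exon overlaps came from GENCODE M21, and promoters from RefSeq GRCm38.p6.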

Additional observations from a re-analysis of the deposited data

How the results depend on the processing

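The direction of the log2 fold change of Car12, Car9 and Car11 was kept under every alternative that gave a value (14, 12 and 14 of them), with ranges of 1.10 to 1.22, 0.68 to 1.97 and 0.60 to 1.20. Car12 passed the adjusted threshold under DESeq2 (1.15, adjusted p = 0.00528) and under none of its other alternatives, where the lowest adjusted p was 0.0746. Leaving out 1 library gave Slc4a7 -0.15 (20% oxygen replicate 3 out) to 0.34, and Car5b -0.24 (20% oxygen replicate 2 out) to 0.59, with -0.10 when 4% oxygen replicate 3 was out; the cause of these reversals was not tested. Genes called higher went from 0 to 25 with no filter on low counts, 55 with DESeq2 and 11 with the replicate block, and genes called lower from 0 to 2 with no filter and 8 with DESeq2. Leaving out each library gave 0 to 0 genes higher and 0 to 1 lower, the 1 being without 4% oxygen replicate 3. Of the 9 genes, 2 in place of 1 were higher at an unadjusted p under 0.05 with no filter, DESeq2 and the replicate block, and 1 to 2 when a library was left out, the 2 being without 4% oxygen replicate 2; in each the second was Car11. Among the 62 genes of the pathway lists, the block put 3 in place of 1 under that threshold, Slc16a3, Bsg and Slc9a5. With limma-voom there were 2, Slc16a3 and Bsg, and the same 2 with no filter, where 70 list genes were tested. Leaving out each library, with 62 to 64 list genes tested, gave 1 to 4 higher and 0 to 1 lower. Shares of all tested genes under that threshold were counted for the main fit only, so these alternative counts have no background. Halved counts left Car9 out of the test, as did a mean of at least 1 CPM for Car9 and Car5b. CPM per kilobase in place of RPKM raised the levels 1.51 to 1.65 times. Read pairs limit Car2, Car4, Car8, Car9 and Car13.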

Other observations

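Genes that move or sense protons away from the bicarbonate system were measured as well. Of the 25 genes of the vacuolar proton pump, which acidifies lysosomes and secretory granules, 22 entered the test and 0 passed at an unadjusted edgeR p under 0.05, with a median log2 fold change of -0.06. Atp6v0a1, a neuronal membrane subunit, had 53.4, 72.6 and 67.0 CPM at 20% oxygen and 80.9, 81.9 and 87.8 CPM at 4% oxygen, without overlap (log2 fold change 0.38, SE 0.23). Atp6v1a, a catalytic subunit chosen after its values were seen, did not overlap in the lower direction, at 228, 223 and 215 CPM against 211, 213 and 203 CPM (log2 fold change -0.09, SE 0.21). These are 1 gene each way of the 22, where 6.33% of all tested genes were higher without overlap and 3.72% lower. Atp6v1d, a stalk subunit, averaged 88.5 ± 18.7 and 68.5 ± 5.51 CPM (SD, n = 3). The acid-sensing channel gene Asic1, listed as Accn2, had 56.8, 76.7 and 54.5 CPM at 20% oxygen and 86.8, 88.6 and 80.1 CPM at 4% oxygen, also without overlap (log2 fold change 0.44, SE 0.24). Of all 62 tested list genes, 4 were higher without overlap (Slc16a3, Slc9a8, Atp6v0a1 and Asic1) and 1 lower. The shares of all tested genes were 6.33% and 3.72%. Among 8 tested sensors and channels 0 passed, and the median was 0.02, or 0.37 without 20% oxygen replicate 1. Without 20% oxygen replicate 2 the unadjusted edgeR p of Asic1 was 0.0429, against 0.0893 with all 6 libraries.

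Of 5 tested exchanger regulators and 2 tested SLC26 anion exchangers, 0 passed. Slc9a3r1, a scaffold of sodium-proton exchangers, averaged 16.7 ± 3.39 and 13.8 ± 5.22 CPM, and Chp1, an essential exchanger cofactor listed as 1500003O03Rik, 75.1 ± 4.88 and 67.3 ± 6.02 CPM. Slc26a4, which encodes pendrin, an exchanger best known from thyroid, inner ear and kidney, averaged 75.8 ± 18.1 and 76.6 ± 16.97 CPM. Slc26a6 averaged 9.15 ± 3.40 and 8.14 ± 1.32 CPM.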
